A study of Mus musculus with 30 samples.

Results

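The change between days 3 and 1 of culture was measured in Irf4-/- B cells in which a low dose of doxycycline switches on an Irf4 gene. The comparison took every array labelled low DOX at these days, which gave 3 arrays at day 3 and 3 at day 1, 6 of the 30 arrays of the series. The low DOX cells were spleen B cells of the C57BL/6, B1-8i strain, with the genotype Irf4-/- and an inducible Irf4 gene, stimulated through CD40 (by its ligand) with the cytokines IL-2, IL-4 and IL-5, and given 16 ng/mL doxycycline. The same days were read in high DOX cultures (same genotype and stimulation, 100 ng/mL doxycycline), in zero DOX cultures (same genotype and stimulation, 0 ng/mL doxycycline) and in stimulated wild-type (WT, Irf4+/+) cultures without doxycycline, with 3 arrays per group and day. Each replicate came from an individual mouse, and 1 of the 3 replicates of each group was handled apart from the others, without a label for which. The mice's age, the cells in which the inducible gene is active and the design of the Irf4-/- allele are not stated in the labels or the series text, which do say that the low and high doses were chosen because they give low and high numbers of plasma cells.

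Irf4 is a transcription factor that B cells switch on when they are activated. In mouse B cells a low, brief level goes with germinal centre genes and antibody class switching, and a sustained high level goes with Prdm1 and the plasma cell state. Plasma cells secrete antibody, and they carry an enlarged endoplasmic reticulum (ER) whose genes are driven in large part by Xbp1.

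Expression is given as log2 of the deposited intensity plus 16. Differences are day 3 minus day 1 on that scale, so that 1 unit is a doubling of intensity plus 16, close to 2-fold in bright genes and more than 2-fold in dim ones. Median intensities of the low DOX arrays lay between 176.3 and 191.2 at day 3 and between 180.5 and 198.2 at day 1, and replicates of the same day correlated at 0.9914 to 0.9951 at day 3 and 0.9913 to 0.9946 at day 1. The B cell transcripts Ms4a1 (13.79, 13.88 and 13.88 at day 3, 13.76, 13.88 and 13.89 at day 1) and Cd79b (log2 difference 0.12, adjusted p = 0.092) were high on all 6 arrays. By Xist and the Y-linked Eif2s3y, replicates 1 and 2 came from males and replicate 3 from a female on both days, so the sexes were balanced between the days. A gene was called changed where limma's adjusted p was below 0.05.

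The arrays carry 2 probe sets for Irf4. The set that follows doxycycline read 13.09, 12.94 and 12.99 in low DOX cultures at day 3, against 11.17, 7.69 and 10.89 at day 1 (log2 difference 3.09, SE 0.623, adjusted p = 0.000253). Day 1 replicate 2 thus went against its label: its 7.69 lay with the zero DOX cultures, which read 7.68, 7.34 and 7.49 at day 3, and far below the other low DOX arrays of its day. Conversely, 10.77 was measured on the array labelled zero DOX day 1 replicate 2, against 7.84 and 7.80 in replicates 1 and 3. High DOX cultures read 13.66, 13.56 and 13.53 at day 3 and 13.10, 12.68 and 12.85 at day 1. WT cultures, whose Irf4 gene is intact, read 7.35, 7.39 and 7.23 at day 3 and 7.92, 7.89 and 7.64 at day 1 on this set, below all doxycycline cultures except the array named above. At the low dose, the signal of the labelled replicates 1 and 3 was thus still well below that of day 3, while at the high dose the days lay closer together. The other set, which had the higher mean, was lower at day 3 (11.37, 11.26 and 10.89, against 12.15, 12.06 and 11.92 at day 1, log2 difference -0.87, adjusted p = 5.72e-06). It read high in every group, zero DOX included, so it checks neither the genotype nor the dose.

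**Figure D1:**
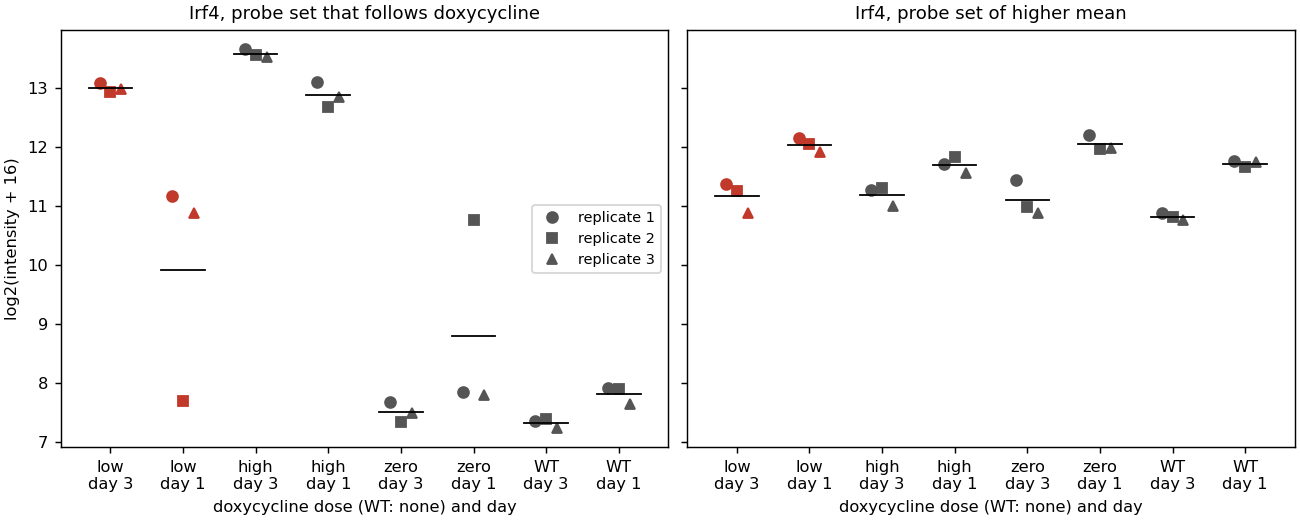
Log2(intensity + 16) of the Irf4 probe sets on each array, with symbols for replicates 1 to 3, low DOX in red, other cultures in grey and a line at the mean of 3 arrays. In the left panel low DOX day 1 replicate 2 lies at 7.69 and zero DOX day 1 replicate 2 at 10.77, each apart from its group.

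Because of this array, every comparison is given with all 6 arrays and was repeated without low DOX day 1 replicate 2. Of 12183 genes tested, 5532 (45.4%) were called between days 3 and 1, 2545 higher (20.9%) and 2987 lower (24.5%). Of these, 295 rose (2.42% of the genes tested) and 102 fell (0.837%) at least 2-fold. Without day 1 replicate 2, 5461 genes were called (44.8%), 2413 higher (19.8%) and 3048 lower (25%), and 5028 genes (41.3%) were called the same way with and without it. The 1st, 50th and 99th percentiles of all log2 differences were -0.94, -0.03 and 1.44. The arrays of the days did not overlap in 6111 genes (50.2%). Called both times and without such overlap were 2244 higher (18.4%) and 2553 lower genes (21%), from which the 15 largest rises and falls were taken.

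Of the 15 largest rises, 5 were in genes of the plasma cell list (Jchain, Eaf2, Epcam, Bhlha15 and Sdc1) and 2 in natural killer (NK) receptors (Klrb1f and Klrd1). Jchain, the joining chain of polymeric IgM and IgA, stood at 13.21, 13.18 and 12.50 at day 3, against 6.21, 6.90 and 6.11 at day 1 (log2 difference 6.56, SE 0.312, adjusted p = 9.47e-14). All day 1 values lay below the table's median of 7.67 on this scale, and all day 3 values were among the brighter signals of the table. Eaf2, a partner of the transcription elongation factor Ell, read 12.73, 12.59 and 12.75 at day 3, against 8.34, 8.60 and 8.22 at day 1 (4.31, SE 0.184). Klrb1f, a C-type lectin receptor of the NK gene complex, read 10.59, 10.58 and 10.71 at day 3, against 7.11, 6.92 and 7.10 at day 1 (3.59, SE 0.115). Epcam, an epithelial adhesion molecule that mouse plasma cells also carry, read 11.59, 11.27 and 11.31 at day 3, against 7.79, 7.56 and 8.39 at day 1 (3.48, SE 0.198). The gap between the days exceeded the range of either day in each of these genes, which were chosen for large rises without overlap.

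Bhlha15, a transcription factor of secretory cells also called Mist1, read 10.18, 9.96 and 9.39 at day 3, against 6.58, 6.81 and 6.57 at day 1 (log2 difference 3.19, SE 0.158), although its other probe set did not move (0.03, not called). Sdc1, the surface proteoglycan CD138 by which plasma cells are sorted, read 10.18, 9.77 and 9.51 at day 3, against 7.01, 7.00 and 7.03 at day 1 (2.81, SE 0.153). Of its 3 other probe sets, 1 was called in the same direction and 2 were not called (0.21 and 0.11). The remaining genes of the 15 largest rises were Mmp12, a macrophage elastase (log2 difference 2.99), Rhpn2 (2.99), Etv5, an ETS transcription factor (2.73), Pon3, a paraoxonase (2.72), Tg, thyroglobulin (2.70), Rhobtb1 (2.70), Klrd1, the NK receptor CD94 (2.68), Kcnn4, a calcium-activated potassium channel (2.68), and Tram2 (2.65). Tram2 belongs to the family of translocating chain-associated proteins of the ER membrane, and its other probe set was not called (0.10). In 11 of the 15, all 3 day 1 arrays lay below the table's median, so that the log2 difference depends on the amount added before taking logs.

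**Figure D2:**
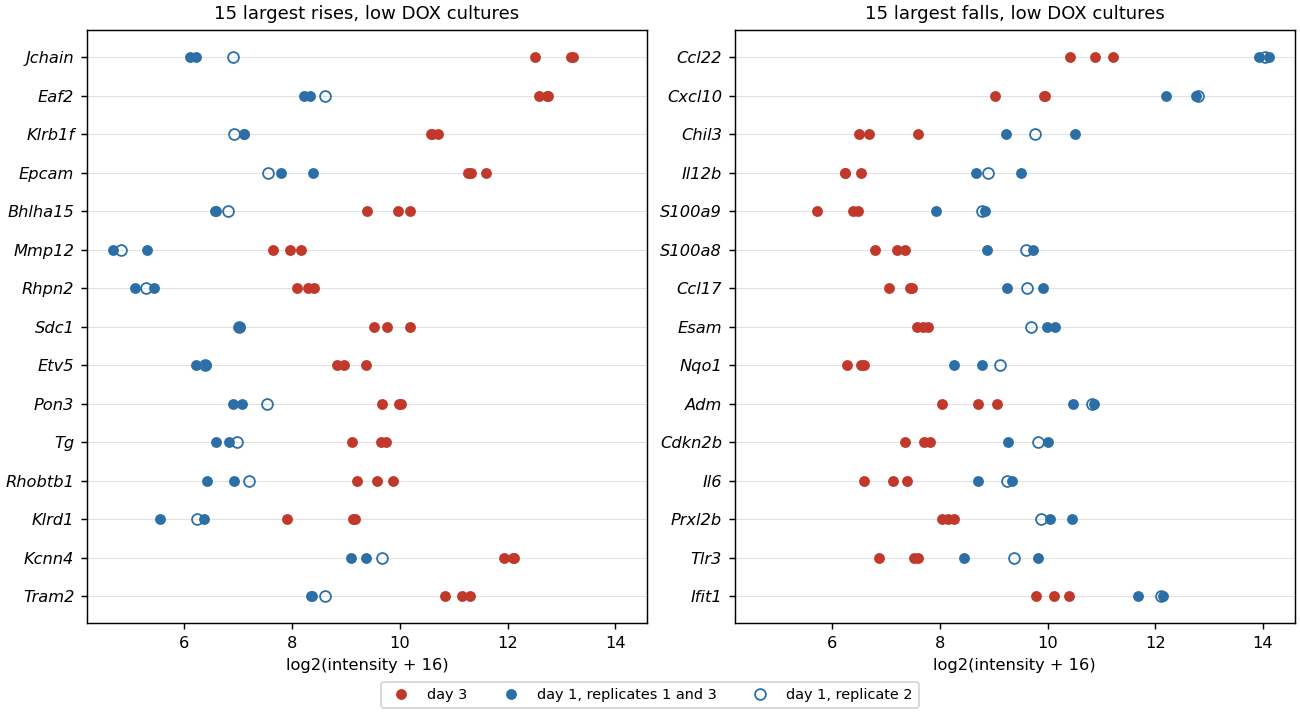
Log2(intensity + 16) of the 15 genes with the largest called rises (left) and falls (right) in low DOX cultures, 1 row per gene. Red points are the day 3 arrays, filled blue points day 1 replicates 1 and 3, and the open point day 1 replicate 2. The days do not overlap in any row, as the choice of these genes required.

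The choice of these 30 genes required that the days not overlap, so the place of day 1 replicate 2 in them is no finding. Over all called genes it was the day 1 array nearest to day 3 in 44.1% of the 2545 genes that rose, against 21.1% for replicate 1 and 34.7% for replicate 3. Among the 2987 that fell the shares were 47.2% for replicate 2, 17.5% for replicate 1 and 35.3% for replicate 3. These genes were called with the same day 1 arrays, and the shares over all genes tested were not taken. The order therefore describes the called genes and is no test of that array.

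Plasma cell genes rose as a group. Of 29 tested, 26 rose and 1 fell, with a median log2 difference of 1.18 against -0.03 for all genes, and 25 rose without day 1 replicate 2. Prdm1, which encodes the repressor Blimp-1 that establishes the plasma cell state, read 10.33, 10.17 and 9.72 at day 3, against 7.81, 7.84 and 7.60 at day 1 (log2 difference 2.33, SE 0.199, adjusted p = 1.41e-09). Xbp1, the regulator of the ER, read 13.60, 13.45 and 13.47 at day 3, against 12.60, 12.70 and 12.79 at day 1 (0.81, SE 0.079), and 1 of its 3 other probe sets was not called (0.27). Xbp1 was thus bright on every day 1 array, while Prdm1 was near the table's median there. Ell2, an elongation factor that favours the secreted form of the antibody heavy chain, rose by 1.31, and Il6ra, a receptor chain for IL-6, rose by 1.67 (its other probe set, 0.15, was not called). Tnfrsf17, the survival receptor BCMA, read 6.88, 6.92 and 6.68 at day 3, against 6.10, 5.82 and 5.99 at day 1 (0.85, SE 0.12), below the table's median on all 6 arrays. Creb3l2, an ER-bound transcription factor, was called (0.28, adjusted p = 0.012) but not without day 1 replicate 2 (0.20, adjusted p = 0.087). The member that fell was Irf4 itself, through the probe set that does not follow the dose. In bulk cultures a change in the number of plasma cells cannot be told apart from a change in transcript per cell.

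Of 3 antibody constant region genes tested, Ighg3 rose (11.43, 11.68 and 11.20 at day 3, against 10.07, 10.17 and 9.84 at day 1, log2 difference 1.41, SE 0.264). Ighm rose as well (14.76, 14.79 and 14.69 at day 3, against 13.90, 14.00 and 13.79 at day 1, log2 difference 0.85, SE 0.085). Igha was not called (-0.08).

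The protein folding and quality control machinery of the ER moved the same way at smaller size. Of 34 tested genes, 25 rose and none fell (median log2 difference 0.32), with the same counts without day 1 replicate 2. Fkbp11, Txndc5 and Edem1 also belong to the plasma cell list and count in both. Fkbp11, a prolyl isomerase of secretory cells, rose by 1.92 (its other probe set, -0.06, was not called). Txndc5, a disulfide isomerase, read 12.74, 12.59 and 12.58 at day 3, against 10.72, 10.81 and 10.84 at day 1 (1.85, SE 0.07). Derl3, which helps to pull misfolded proteins out of the ER, read 10.64, 10.58 and 9.90 at day 3, against 8.85, 9.07 and 8.32 at day 1 (1.63, SE 0.306). Edem3, which marks misfolded glycoproteins for removal, rose by 1.13. The list was uneven, since Hspa5, the main ER chaperone BiP, was not called (-0.08, adjusted p = 0.33) at a high level on all 6 arrays (13.78, 13.70 and 13.60 at day 3, 13.78, 13.76 and 13.77 at day 1). Calr (0.01) and Canx (-0.02), which encode the lectin chaperones calreticulin and calnexin, were not called either. Hspa5, Calr and Canx were singled out after their values were seen.

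Promoters of this list were searched for the ER stress response element, because it is the sequence by which Atf6 and Xbp1 are known to act on chaperone genes. It was searched as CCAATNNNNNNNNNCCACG on both strands, in the 250 bases before and 50 after each start given by RefSeq (GRCm38.p6). Of 32851 promoters, 39 held it (0.119%). Of the 30 genes of the list with a promoter in the table, 10 held it, and of these 6 rose and 4 were not called (Pdia6, Calr, Canx and Hspa5). Of the 20 without it, 17 rose. The median log2 difference was 0.29 with the element and 0.44 without it, so its presence in this window did not go with a larger rise. Windows of 3 genes are printed to set a large, a moderate and no called rise side by side, the last 2 chosen after their values were seen. Each runs 5′ to 3′ in the direction of the gene and ends before its start, with the element in capitals. Derl3 (log2 difference 1.63) is shown at chr10:75893191-75893310 on the + strand, where the element lies on the opposite strand. Dnajc3, an inhibitor of the ER stress kinases (0.61), is shown at chr14:118937776-118937895 on the + strand, and Hspa5 (-0.08, not called) at chr2:34771970-34772089 on the + strand.
Derl3: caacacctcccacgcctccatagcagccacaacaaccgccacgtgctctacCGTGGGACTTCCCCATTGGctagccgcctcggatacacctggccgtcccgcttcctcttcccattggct
Dnajc3: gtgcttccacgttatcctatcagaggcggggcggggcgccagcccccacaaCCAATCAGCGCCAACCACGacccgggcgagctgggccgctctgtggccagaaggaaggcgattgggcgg
Hspa5: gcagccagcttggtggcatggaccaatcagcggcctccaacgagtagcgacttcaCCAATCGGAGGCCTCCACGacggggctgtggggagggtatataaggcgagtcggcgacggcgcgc

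Of 42 genes that bring proteins into the ER and carry them to the Golgi, 28 rose and 4 fell (median log2 difference 0.23). Sec24d, a cargo-binding subunit of the COPII coat, changed most: it read 10.10, 9.87 and 9.37 at day 3, against 7.19, 7.60 and 7.27 at day 1 (2.43, SE 0.145). Sec11c, of the signal peptidase, rose by 0.86, Spcs3, of the same complex, by 0.75, and Tram1, at the translocation channel, by 0.75. Sar1a, the GTPase that starts the COPII coat, fell (-0.52), as did Mcfd2, a cargo receptor subunit (-0.29). Of 33 N-glycosylation genes 13 rose and 7 fell, the falls near the share of all genes tested (24.5%). Those that rose most were Mgat1, a Golgi glycosyltransferase (log2 difference 0.92), and the oligosaccharyltransferase subunits Krtcap2 (0.73) and Rpn2 (0.63). Among those that fell were Gmppb (-0.72), which makes the mannose donor, and Alg3 (-0.53) and Alg11 (-0.29), which build the lipid-linked sugar.

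Day 3 replicate 3 had the lowest of the 3 day 3 values in 30 of 34 ER chaperone and quality control genes, in 38 of 42 transport genes and in 17 of 29 plasma cell genes, against 29.7% of all genes tested. It was also lowest in 22 of 33 N-glycosylation, 21 of 30 oxidative phosphorylation and 17 of 27 interferon response genes. Conversely, it was highest in 18 of 20 cholesterol synthesis genes and in 5512 of all 12183 genes. Replicate 3 is the replicate from a female. Whether sex, the separate handling of 1 replicate or the animal goes with this was not tested.

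Genes of ribosome production fell without exception among the 30 tested (median log2 difference -0.54, 30 also without day 1 replicate 2). Nop16, a nucleolar protein of the large subunit, read 10.59, 10.52 and 10.48 at day 3, against 11.82, 11.63 and 11.77 at day 1 (-1.21, SE 0.088). Rrp9 (-0.97), Rrp12 (-0.90) and Bysl (-0.83), which process or export ribosomal RNA, followed. Myc itself, which drives this programme in activated lymphocytes, was not called (0.03, adjusted p = 0.804), at 11.48, 11.42 and 11.50 at day 3 and 11.46, 11.37 and 11.48 at day 1. Of the 10 genes of the Myc network 6 rose, among them the antagonists Mxi1 (1.74), Mxd4 (0.99) and Mnt (0.68, although its other probe set, 0.01, was not called).

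Cell cycle genes were mixed, with 15 of 34 higher and 7 lower at day 3 (median log2 difference 0.27). In this list the share of higher genes exceeded that of all genes tested (20.9%), while that of lower genes did not (24.5%). The largest rises were in the kinetochore motor Cenpe (1.30), the centromeric histone Cenpa (1.26) and the mitotic cyclin Ccnb2 (1.17), while the mitotic genes Bub1 (0.39), Top2a (0.24) and Cdk1 (0.15) were not called. Mki67, the proliferation marker Ki-67, read 13.02, 12.95 and 12.82 at day 3, against 11.87, 12.16 and 11.05 at day 1 (1.24, SE 0.292), with the lowest value in day 1 replicate 3. The 7 that fell were Pcna, Tyms and 5 of the replication helicase subunits, among them Mcm5 (-0.28) and Mcm3 (-0.36). The call of Mcm3 was lost without day 3 replicate 2 (-0.31) or day 1 replicate 3 (-0.31), and 1 of its other probe sets read 0.00. Tyms (-0.27) lost its call without day 1 replicate 2 (-0.20) and with centring (-0.24), among other settings, and its other probe set was not called (-0.15). Without day 1 replicate 2, 14 cell cycle genes were higher and 6 lower. Of 15 genes of D cyclins and inhibitors of cyclin-dependent kinases 5 rose and 5 fell. Cdkn1b, the inhibitor p27, read 11.50, 11.51 and 11.43 at day 3, against 10.29, 10.51 and 10.31 at day 1 (1.11, SE 0.064), with its other probe set not called (0.18). Cdkn2d (1.10) and Cdkn2c (0.84) rose, while Cdkn2b, the inhibitor p15, fell (-2.07, SE 0.222).

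Of the 15 largest falls, 5 were in chemokines or cytokines (Ccl22, Cxcl10, Ccl17, Il12b and Il6) and 3 in myeloid markers (Chil3, S100a9 and S100a8). Ccl22, a chemokine that attracts T cells, read 11.21, 10.88 and 10.42 at day 3, against 14.11, 14.03 and 13.92 at day 1 (log2 difference -3.18, SE 0.325, adjusted p = 2.31e-08). Cxcl10, an interferon-induced chemokine, read 9.95, 9.94 and 9.03 at day 3, against 12.76, 12.80 and 12.20 at day 1 (-2.95, SE 0.304). Chil3, a chitinase-like protein of myeloid cells, read 6.50, 6.69 and 7.59 at day 3, against 9.23, 9.76 and 10.50 at day 1 (-2.90, SE 0.399). Il12b, the p40 chain of IL-12, fell by 2.67, and Ccl17, which shares its receptor with Ccl22, fell by 2.26. S100a9 (-2.32) and S100a8 (-2.28), calcium-binding proteins abundant in neutrophils, are described with the myeloid markers. The other genes of the 15 largest falls were Esam, an adhesion molecule (log2 difference -2.26), the oxidoreductase Nqo1 (-2.25), the peptide hormone Adm (-2.12), Cdkn2b, Il6 (-2.06), Prxl2b (-1.98), Tlr3, a receptor for double-stranded RNA (-1.88), and Ifit1 (-1.88). In 8 of the 15, all 3 day 3 arrays lay below the table's median.

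Of 28 genes that CD40 and NF-kB switch on, 18 fell and 4 rose (median log2 difference -0.47). Cd40, the receptor of the stimulus, read 10.92, 11.05 and 11.26 at day 3, against 12.90, 12.82 and 12.78 at day 1 (-1.76, SE 0.105). Ebi3, a subunit of IL-27 and IL-35, fell by 1.36. Ltb, a membrane-bound lymphotoxin, went the other way (12.11, 12.44 and 12.63 at day 3, against 11.35, 11.33 and 11.44 at day 1, log2 difference 1.02), as did Cd80, a co-stimulator of T cells (0.41), and Traf5, an adaptor of CD40 (0.37). Of the receptor chains for the added cytokines, Il4ra (log2 difference 0.76) and Il2ra (0.62) rose, and Il2rb (0.05) and Csf2rb (-0.61) were not called. Il5ra fell (9.27, 8.95 and 9.05 at day 3, against 10.59, 10.34 and 10.38 at day 1, log2 difference -1.35, SE 0.112). Cish, a target and inhibitor of Stat5, fell by 1.29 and Stat5a by 0.88. Socs2, another inhibitor of cytokine signals, rose (12.87, 12.60 and 12.59 at day 3, against 10.73, 10.33 and 11.17 at day 1, log2 difference 1.94, SE 0.191), and Socs1 fell (-0.47). Of the 28 genes in this list of cytokine signalling 11 rose and 7 fell, the falls near the share of all genes tested (24.5%).

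The interferon response fell as well, in 20 of 27 genes with none rising (median log2 difference -0.63), and in 18 genes without day 1 replicate 2. Ifit1, which binds viral RNA, read 10.11, 10.39 and 9.78 at day 3, against 12.15, 12.11 and 11.67 at day 1 (-1.88, SE 0.248). Parp12 read 9.96, 10.05 and 9.61 at day 3, against 11.48, 11.65 and 11.06 at day 1 (-1.52, SE 0.247), and Oasl1 fell by 1.31. On each of these 3 genes replicate 3 was the lowest of its day on both days, and the days did not overlap. The interferon-induced GTPases did not follow as a group, since 3 of 10 rose and 3 fell. Iigp1 (1.35), Gbp2b (1.18) and Gbp8 (1.09) rose, while Gbp7 (-0.49), Gbp3 (-0.43) and Irgm1 (-0.28, not called without day 1 replicate 2) fell. Ifng, which encodes interferon gamma, read 9.54, 10.26 and 9.08 at day 3, against 11.20, 11.96 and 11.12 at day 1 (-1.80, SE 0.334).

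Promoters of the interferon list were searched in the same windows for GAAANNGAAA, the core of the element that interferon-activated Stat and Irf factors bind. It occurred in 3.44% of all promoters (1131 of 32851) and in 11 of the 20 list genes with a promoter in the table. Of the 11, 9 fell and 2 were not called, with a median log2 difference of -0.77. Of the 9 without it, 7 fell, with a median of -0.63. The windows printed are of the 2 genes with the largest falls and of Stat2, which holds the element and was not called (0.16, adjusted p = 0.117) and was picked after its value was seen. Capitals mark each match. Cxcl10 (-2.95) is shown at chr5:92349020-92349139 on the - strand, Ifit1 (-1.88), whose window holds the element 2 times on the opposite strand, at chr19:34640749-34640868 on the + strand, and Stat2 at chr10:128270248-128270367 on the + strand, with the element on the opposite strand.
Cxcl10: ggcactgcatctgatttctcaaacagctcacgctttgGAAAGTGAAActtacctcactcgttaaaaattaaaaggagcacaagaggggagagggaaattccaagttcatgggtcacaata
Ifit1: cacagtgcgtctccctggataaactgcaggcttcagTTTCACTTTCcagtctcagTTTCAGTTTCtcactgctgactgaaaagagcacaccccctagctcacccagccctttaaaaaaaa
Stat2: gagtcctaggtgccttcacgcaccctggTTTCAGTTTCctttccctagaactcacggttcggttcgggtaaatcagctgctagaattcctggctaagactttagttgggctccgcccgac

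Genes of B cell identity were mixed, with 15 of 31 higher and 5 lower (median log2 difference 0.21). The lower genes stayed below the share of all genes tested (24.5%). Fcrla, an intracellular Fc receptor-like protein (1.71), Cd24a (1.44), the surrogate light chain partner Vpreb3 (1.38) and Ikzf3, the zinc finger protein Aiolos (1.09), rose most. Pax5, which holds B cells in their identity and is switched off in plasma cells, read 9.82, 9.91 and 9.97 at day 3, against 10.34, 10.18 and 10.35 at day 1 (-0.39, SE 0.103), with its other probe set not called (-0.18). Fcer2a, the IgE receptor CD23, fell by 1.02 and Swap70 by 0.60. Bcl6, the repressor of the germinal centre state, was not called (0.40, adjusted p = 0.117; adjusted p = 0.0198 with the replicate number as a block). Its values were 10.42, 10.40 and 10.92 at day 3 and 9.92, 10.10 and 10.52 at day 1, so that replicate 3 was highest on both days. Bach2, which represses Prdm1, was called (0.43, adjusted p = 0.0115), a call lost without day 1 replicate 1 (0.34), and 1 of its other probe sets read -0.03. Irf8 rose by 0.25, and Spib was not called (0.12, adjusted p = 0.278). Of 20 germinal centre genes 8 rose and 3 fell, the falls below the share of all genes tested (24.5%). Neil1, a DNA glycosylase, led them (10.20, 9.87 and 9.58 at day 3, against 7.77, 7.91 and 7.80 at day 1, log2 difference 2.05).

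**Figure D3:**
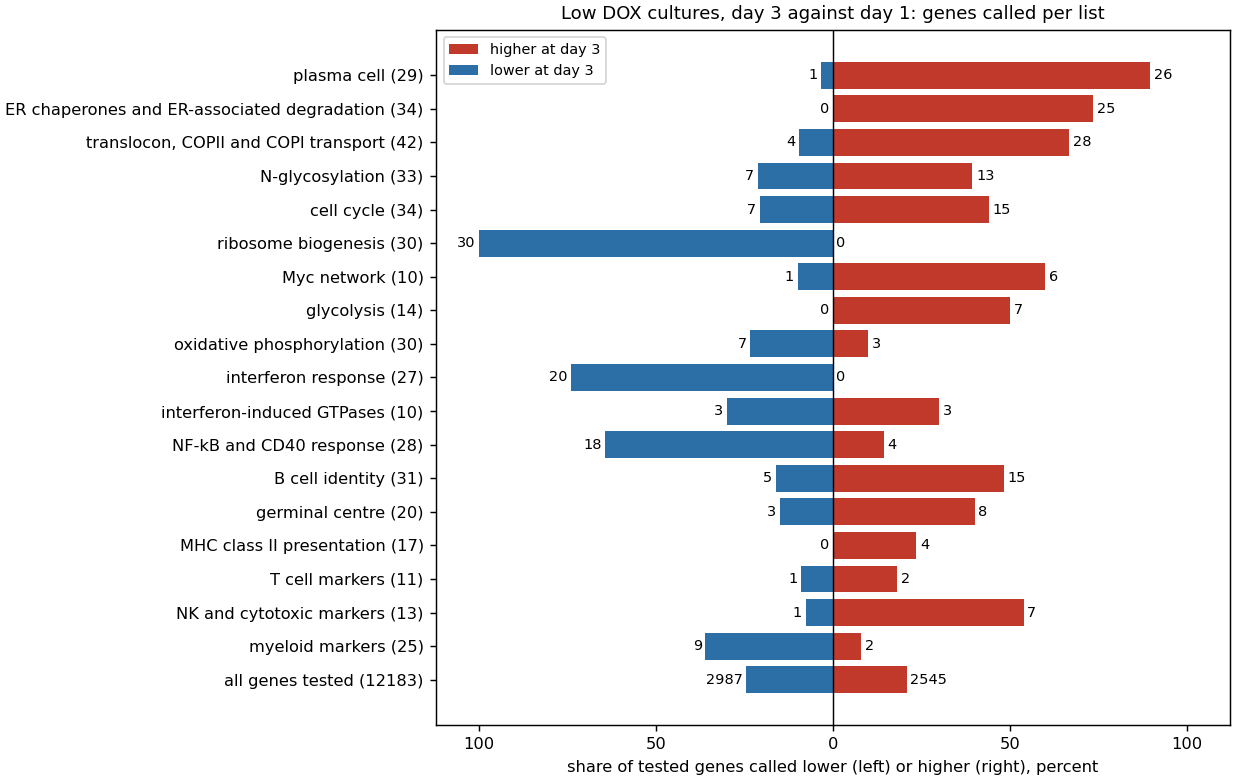
Share of the tested genes of each list called higher (right) or lower (left) at day 3 in low DOX cultures, with the counts at the bars and the number tested in parentheses. All 12183 genes stand at the bottom, with 2545 higher and 2987 lower.

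Some markers of other spleen cells changed beside these groups. Of 13 NK and cytotoxic markers 7 rose and 1 fell (median log2 difference 1.09), with summed intensities of 10549 to 17853 at day 3 and 7257 to 10224 at day 1. Gzma, a granule protease, read 11.07, 11.65 and 10.68 at day 3, against 8.82, 9.15 and 8.57 at day 1 (2.29, SE 0.277). Prf1, the pore-forming perforin, read 8.92, 9.93 and 9.10 at day 3, against 7.40, 7.46 and 7.38 at day 1 (1.90, SE 0.241). Klrd1 read 7.91, 9.16 and 9.13 at day 3, against 5.55, 6.23 and 6.36 at day 1. Eomes (-0.26) and Klre1 (0.03), also of this list, were not called, and Ifng was the member that fell.

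Of 25 myeloid markers 9 fell and 2 rose (median log2 difference -0.03), with summed intensities of 15011 to 19670 at day 3 and 18151 to 20683 at day 1. S100a9 read 5.72, 6.38 and 6.48 at day 3, against 7.93, 8.78 and 8.83 at day 1, and S100a8 read 6.80, 7.21 and 7.36 at day 3, against 8.88, 9.60 and 9.73 at day 1. Mpo, the peroxidase of neutrophil granules, read 6.19, 6.46 and 6.45 at day 3, against 7.62, 7.96 and 8.33 at day 1 (-1.61, SE 0.223). The neutrophil genes were thus below the table's median at day 3 on every array. Alox5ap, of leukotriene synthesis (0.51), and Itgam (0.47) rose, and Lyz2, a lysozyme of macrophages, was not called (0.06). Of 11 T cell markers 2 rose, Cd2 (1.08) and Cd3g (0.83), and 1 fell (Cd247, -0.21). Neither count exceeded the share of all genes tested (20.9% higher, 24.5% lower). Cd247 lost its call with centring (-0.18) and with quantile normalization (-0.17), among other settings. Summed intensities of the T cell markers were 4146 to 5626 at day 3 and 3873 to 4392 at day 1. Summed intensities of 8 dendritic markers were 9059 to 10162 at day 3 and 10282 to 11599 at day 1, with 1 higher and 3 lower. Those of mast cell, erythroid and platelet markers overlapped between the days. The part of these cells in the results above was not tested.

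The same time difference was then set against the other cultures, each with arrays of its own. Of the 15 largest rises, all 15 rose in high DOX cultures (median log2 difference 3.35, against 2.81 at low DOX), 8 rose and 1 fell at zero DOX (median 0.57), and 14 rose and 1 fell in WT (median 1.66). Of the 15 largest falls, 15 fell at high DOX, 12 at zero DOX and 12 in WT, with medians of -2, -1.74 and -1.47 against -2.26 at low DOX. Both sets were chosen for their size at low DOX, so a smaller median elsewhere is no test. High DOX cultures changed in 6088 genes (50%). Of the genes that rose at the low dose, 2126 rose at the high dose (83.5% of the low DOX rises, 75.9% of the high DOX rises), and 2555 fell at both doses (85.5% and 77.7%). Zero DOX cultures changed in 6413 genes (52.6%) and shared 1861 rises (73.1% of those at low DOX, 58.9% of those at zero DOX) and 2194 falls (73.5% and 67.4%). WT cultures changed in 8458 genes (69.4%) and shared 2006 rises (78.8% of those at low DOX, 38.1% of those in WT) and 2094 falls (70.1% and 65.7%). Called in the opposite direction were, of the genes that rose and those that fell at low DOX, 2 and 5 at high DOX, 102 and 51 at zero DOX, and 96 and 250 in WT. The 1st and 99th percentiles of the low DOX mean minus the zero DOX mean were -0.80 and 0.99 at day 3 and -0.15 and 0.10 at day 1, where each group holds 1 array that went against its label.

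**Figure D4:**
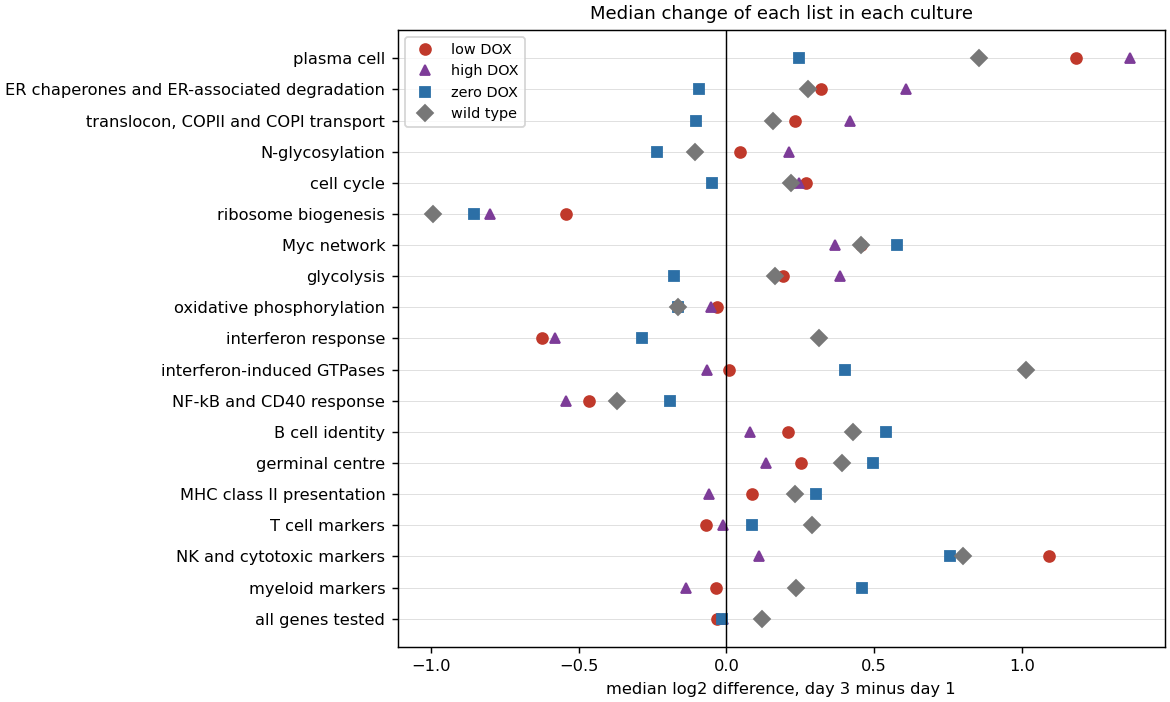
Median log2 difference, day 3 minus day 1, of each list in low DOX, high DOX, zero DOX and wild-type cultures. Plasma cell genes stand at 1.18, 1.37, 0.25 and 0.86 in that order, and ER chaperone and quality control genes at 0.32, 0.61, -0.09 and 0.28.

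A difference between low and zero DOX cultures in the change over time was called in 2108 genes (17.3%), 1194 higher (9.8%) and 914 lower (7.5%) at low DOX. With the replicate number as a block the count was 3138. Without both day 1 arrays that went against their labels it was 1153 genes (9.46%), 740 higher (6.07%) and 413 lower (3.39%). Jchain had the largest such difference (6.39, SE 0.442, adjusted p = 5.92e-10). It averaged 12.96 ± 0.40 at day 3 and 6.41 ± 0.43 at day 1 in low DOX cultures, and 6.55 ± 0.33 and 6.38 ± 0.35 in zero DOX cultures (SD, n = 3 each). Epcam (3.72), Bhlha15 (3.68), Klrb1f (3.32) and Rhpn2 (2.90) followed, none of which rose at zero DOX. Prdm1 rose by 2.33 at low DOX and was not called at zero DOX, where it stood at -0.03 (difference 2.35, SE 0.281, adjusted p = 2.85e-06). As lists, 20 of 29 plasma cell genes changed more upward at low DOX and 1 less, 27 of 34 ER chaperone and quality control genes, 29 of 42 transport genes and 19 of 33 N-glycosylation genes did so with none the other way. Without both day 1 arrays these counts were 19, 22, 25 and 17. Hspa5 and Calr, not called over time at low DOX, stood at -0.45 and -0.34 at zero DOX. They were among those called with all arrays (adjusted p = 0.00323 and 0.0265). Canx, at -0.31 at zero DOX, was not (adjusted p = 0.0548). Ribosome production genes fell in both cultures, and 18 of 30 fell less at low DOX (7 without both arrays, 10 with centring).

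Lower at low DOX by this measure were Chil3 (-3.07), S100a9 (-2.95) and S100a8 (-2.74), which fell at low DOX and were not called at zero DOX (0.17, 0.63 and 0.46). Pf4 (-2.71) and Ppbp (-2.40), platelet chemokines, rose in zero DOX cultures by 2.60 and 3.69. At low DOX, Ppbp rose by 1.30 and Pf4 was not called (-0.11). All of them are myeloid or platelet genes, and 10 of 25 myeloid markers changed less upward, or fell more, at low DOX than at zero DOX (5 without both day 1 arrays). Such changes were also called in other lists, and which cells those transcripts came from was not tested. Lower by this measure were also 10 of 31 B cell identity genes, 9 of 28 CD40 and NF-kB genes and 9 of 28 cytokine signalling genes. In the same lists 3, 1 and 4 were higher. Without both day 1 arrays 5, 7 and 6 were lower.

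Between low and high DOX cultures the change over time differed in 141 genes (1.16%), 37 higher (0.304%) and 104 lower (0.854%) at low DOX. With the replicate number as a block 410 genes were called. Centring turned the split to 25 higher and 41 lower (37.9% higher, against 26.2%), the replicate block to 171 and 239 (41.7%), and array weights to 430 and 452 (48.8%). Without low DOX day 1 replicate 2 the count was 86 (0.706%), 17 higher (0.14%) and 69 lower (0.566%). Those higher at low DOX were led by Gzma (1.87, SE 0.392, adjusted p = 0.0165), which rose by 2.29 at low DOX and was not called at high DOX (0.42). This call was lost without low DOX day 3 replicate 2 (1.61) or high DOX day 3 replicate 1 (1.75). Ifitm1 (1.64) and Gbp2b (1.56), both interferon-induced, rose at low DOX by 1.11 and 1.18. At high DOX, Ifitm1 fell (-0.53) and Gbp2b was not called (-0.37). Cd36, a scavenger receptor of marginal zone B cells and macrophages, rose by 2.35 at low DOX and by 1.04 at high DOX (difference 1.31), with day 1 means of 8.06 ± 0.13 at low and 9.08 ± 0.21 at high DOX (SD, n = 3 each). Ffar2, a receptor for short-chain fatty acids (0.76), lost its call without any of 8 single arrays (log2 difference 0.66 to 0.77). Gzma averaged 11.13 ± 0.49 at low DOX and 9.06 ± 0.52 at high DOX, at day 3, while at day 1 it averaged 8.85 ± 0.29 and 8.64 ± 0.18 (SD, n = 3 each). Of the 13 NK and cytotoxic markers 2 rose and 2 fell at high DOX. At zero DOX 7 of them rose and none fell, and in WT 8 rose and 2 fell. Of all genes tested 25.9% rose at zero DOX and 43.3% in WT. By the test of the difference, 2 of the 13 were higher at low than at high DOX (1 without low DOX day 1 replicate 2, 7 with the replicate block). Against zero DOX 1 was lower at low DOX and none higher.

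Pon3 was lower at low DOX (-1.54, adjusted p = 0.0195) but was not called without low DOX day 1 replicate 2 (adjusted p = 0.0613). Of those called both ways, the lowest at low DOX were Nmb, the peptide neuromedin B (-1.38, SE 0.176, adjusted p = 0.000203), the carbonic anhydrase Car2 (-1.27), the glycolytic aldolase Aldoc (-1.23), the cytokine Il18 (-1.14) and Tnfrsf17 (-1.11). Tnfrsf17 averaged 6.83 at day 3 and 5.97 at day 1 at low DOX, and 7.94 and 5.97 at high DOX. Nmb averaged 7.83 and 6.96 at low DOX, and 9.18 and 6.93 at high DOX. In both genes the doses shared their day 1 level within the spread of 3 arrays. That level lay below the table's median of 7.67, where a difference between the doses may not be seen. Sec24d rose by 2.43 at low DOX and by 3.47 at high DOX (difference -1.04, SE 0.204, adjusted p = 0.0112). In all, 6 of 42 transport genes, 3 of 34 ER chaperone and quality control genes and 4 of 33 N-glycosylation genes rose less at low DOX, or fell more, than at high DOX. These counts were 4, 2 and 2 without low DOX day 1 replicate 2, and 2, 1 and 0 with centring. They were 11, 7 and 5 with the replicate block, and 22, 14 and 7 with array weights. Jchain (-0.51, SE 0.442, adjusted p = 0.726) and Prdm1 (-0.63, SE 0.281, adjusted p = 0.361) were not called by this measure.

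**Figure D5:**
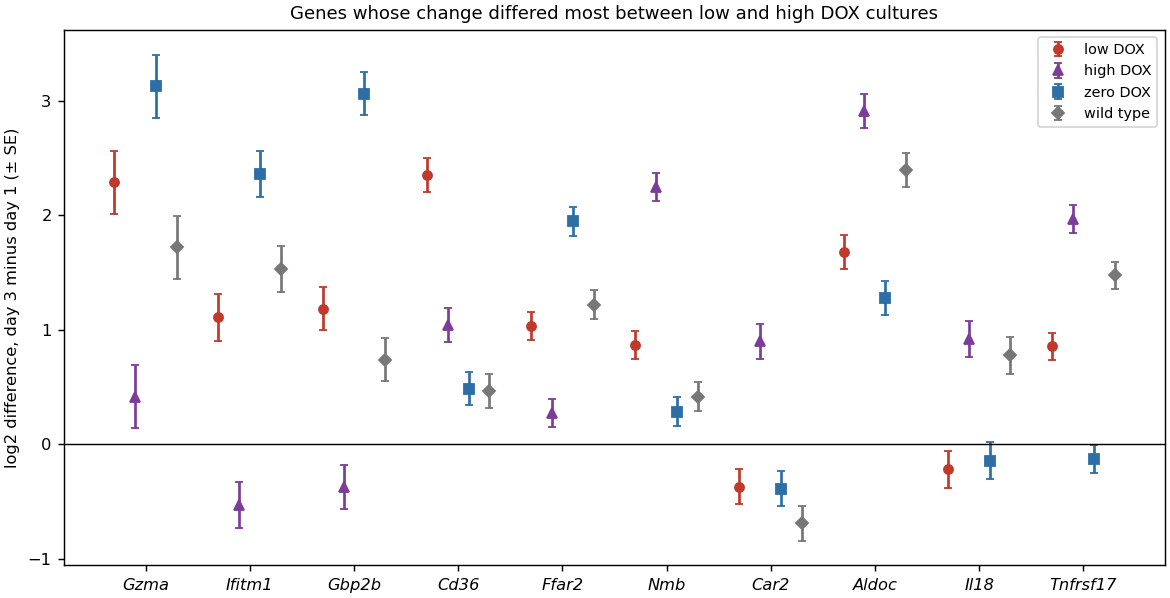
Log2 difference, day 3 minus day 1, with its SE from limma, of the 5 genes most above and the 5 most below in low against high DOX cultures among those called also without low DOX day 1 replicate 2, in each of the 4 cultures. Gzma, Ifitm1 and Gbp2b lie between high and zero DOX at the low dose, and Nmb, Aldoc and Tnfrsf17 lie below high DOX and above zero DOX.

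Against WT the change over time differed in 5382 genes (44.2%), 1959 higher (16.1%) and 3423 lower (28.1%) at low DOX, and without low DOX day 1 replicate 2 in 5274 (43.3%). With each array centred on its median the split turned to 3191 higher and 1802 lower, so directions are given for large single differences and for 1 list, with its centred count. Epcam (4.37), Jchain (3.65) and Klrb1f (3.05) changed more upward at low DOX. WT cells held Jchain at 10.54 ± 0.92 already at day 1 (13.45 ± 0.02 at day 3), against 6.41 ± 0.43 in low DOX cultures (12.96 ± 0.40 at day 3; SD, n = 3 each), so that the day 3 levels lay close together. Phlda1 (2.75) and Socs2 (2.61) rose at low DOX and fell in WT (-1.15 and -0.67). Parm1 (-3.02), Tbc1d4 (-2.66) and Crhbp (-2.54) changed less upward at low DOX, where they stood at 1.22, -0.85 and -0.17, against rises of 4.23, 1.81 and 2.37 in WT. S100a9 (-2.91) and S100a8 (-2.51) also differed. Of 27 interferon response genes 11 rose and 4 fell in WT (43.3% of all genes rose there). Compared with WT, 23 of 27 changed more downward, or less upward, at low DOX (20 with centring). At high DOX 18 of the 27 fell and 1 rose, and at zero DOX 10 fell and 2 rose. Of all genes tested 27% fell at high DOX and 26.7% at zero DOX. None of the 27 differed between low and high DOX in the change over time. Against zero DOX 1 was lower at low DOX, none without both day 1 arrays and 12 with the replicate block.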

How the data were processed

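RNA of 30 cultures was read on Affymetrix mouse expression arrays, in 10 groups of 3. The authors normalized the signals with D-Chip (perfect-match model) and deposited linear intensity values, 1 per probe set and array, per the series text. Per the submitters' processing notes MAS5 was also used, in a role not given in the sources used here. No depth exists for arrays, and their number limits the precision.

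Of 45101 probe sets, 64 were controls; the platform annotation gave 34945 sets 1 symbol, 932 several and 9160 none. Names were updated through a RefSeq table of GRCm38.p6 for 34741 sets, and 204 kept the annotation's name. Sets with at least 3 of 30 arrays above the table's median of 188.2 were tested, and each of 12183 genes took its set of highest mean (5472 had others). Ighg1 was not among them. Log2(intensity + 16) was fitted with 1 mean per group over all 30 arrays in limma 3.58.1 (R 4.3.3; 20 residual degrees of freedom, median residual SD 0.0988), after tests on simulated data. Benjamini-Hochberg adjustment ran over all 12183 genes. An exact test of 3 against 3 arrays cannot go below 0.1. Differences between cultures are interaction contrasts.

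Replicates with the same number deviated together between days 3 and 1 (correlations of 0.436, 0.418 and 0.718 over genes); the fit without a block was kept, with the block as an alternative. Other alternatives were pseudocounts of 1 and 64, centring, quantile normalization, no or a stricter filter, all probe sets, array weights, the 6 low DOX arrays alone, and leaving out arrays.

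Named genes were the 15 largest rises and falls called with and without low DOX day 1 replicate 2 and not overlapping between the days, a panel of regulators, up to 4 largest called members of each list and up to 3 called against its median, and the 5 largest each way of each contrast between cultures among genes called also without the day 1 arrays that went against their labels. Ms4a1, Cd79b, Igha, Calr, Canx, Pdia6, Hspa5, Dnajc3, Stat2, Eomes, Klre1, Lyz2, Bub1, Top2a, Cdk1, Pcna, Il4ra, Il2ra, Il2rb and Csf2rb fall outside it and were picked after their values were seen. The comparison, its members, the lists and this rule were chosen with earlier results of these data known, so counts over lists describe them and are no independent evidence.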

Additional observations from a re-analysis of the deposited data

Results flagged for a closer look

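The results here were singled out because the change over time differed between low DOX and other cultures by a test of the difference itself (limma's interaction contrast, adjusted p below 0.05 with and without the day 1 arrays that went against their labels). Values are log2 differences of the low DOX change minus the other culture's change.

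Against zero DOX cultures the largest were 6.39 for Jchain, 3.72 for Epcam, 3.68 for Bhlha15, 3.32 for Klrb1f and 2.90 for Rhpn2, and the lowest -3.07 for Chil3, -2.95 for S100a9, -2.74 for S100a8, -2.71 for Pf4 and -2.40 for Ppbp. Chil3 averaged 6.93 at day 3 and 9.83 at day 1 in low DOX cultures, and 10.04 and 9.87 in zero DOX cultures.

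Against high DOX cultures they were 1.87 for Gzma, 1.64 for Ifitm1, 1.56 for Gbp2b, 1.31 for Cd36 and 0.76 for Ffar2, and -1.38 for Nmb, -1.27 for Car2, -1.23 for Aldoc, -1.14 for Il18 and -1.11 for Tnfrsf17. Car2 was not called over time at low DOX (-0.37, adjusted p = 0.0501) and rose by 0.90 at high DOX, and Il18 was not called at low DOX (-0.22) and rose by 0.92 at high DOX.

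Against WT cultures they were 4.37 for Epcam, 3.65 for Jchain, 3.05 for Klrb1f, 2.75 for Phlda1 and 2.61 for Socs2, and -3.02 for Parm1, -2.91 for S100a9, -2.66 for Tbc1d4, -2.54 for Crhbp and -2.51 for S100a8.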

How the results depend on the processing

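The count of 5532 genes between days 3 and 1 stayed within 1.5 times except with all probe sets (9511 of 21668 tested), and ran from 4811 to 5461 when 1 low DOX array was left out. The share of higher genes was 52.2% with centring, against 46% without. The count for low against zero DOX was 3234 with all probe sets, 3174 with array weights, 3138 with the replicate block and 1153 without both day 1 arrays; leaving out 1 array gave 1342 (without low DOX day 3 replicate 1) to 2200. For low against high DOX it was 66 with centring, 410 with the replicate block and 882 with array weights, and 72 (without low DOX day 3 replicate 3) to 179 with 1 array left out; 86, 73, 79 and 76 came without low DOX day 1 replicate 2 and high DOX day 3 replicates 1 and 2 and day 1 replicate 1. For low DOX against WT it was 3413 with the stricter filter and 8643 with all probe sets, and 4152 to 5685 with 1 array left out. The cause of these shifts was not tested, except that using all probe sets raises the number of tests. The replicate block in the fit of all 30 arrays changed 1 call of the named genes (Bcl6, 0.40). With the 6 low DOX arrays alone the block also gained Bcl6 and lost 7 (Tyms, Cycs, Ndufc1, Cox5b, Sec31a, Prkdc and Tet3). The only named result to change direction was Irf4, at 3.09 by its other probe set. With 1 array left out, 1452 single-gene results kept their direction and side of the threshold, 59 lost their call and 1 gained it. Signals below the table's median limit the precision of the folds given.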

Other observations

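Of 14 glycolysis genes 7 rose and none fell (median log2 difference 0.19), led by the aldolase Aldoc (1.68), Pdk1, which keeps pyruvate out of the mitochondrion (1.17), and the phosphofructokinase Pfkp (1.06). Of 30 oxidative phosphorylation genes 3 rose and 7 fell. In this list and in cholesterol synthesis, falls were near the share of all genes tested (24.5%) and rises below it (20.9%). Of 20 cholesterol synthesis genes 3 rose and 5 fell, the largest fall being in the isomerase Idi1 (-0.97), and of 9 fatty acid synthesis genes 5 rose, with the desaturases Scd2 (1.23) and Scd1 (0.87) higher and the synthase Fasn lower (-0.55).

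Among genes of the Bcl2 family and apoptosis 6 of 18 rose and 4 fell, where 20.9% of all genes tested rose and 24.5% fell. Bcl2l11, the death promoter Bim, read 12.06, 11.98 and 11.64 at day 3, against 10.13, 10.39 and 9.92 at day 1 (log2 difference 1.74, SE 0.142). Trp53inp1, a p53-induced gene, rose by 2.12, and Bcl2l1, the survival factor Bcl-xL, fell by 1.00. Of 23 genes of class switching and DNA repair 3 rose and 12 fell, with Ung, the glycosylase that removes uracil from DNA, at -0.76 and Xrcc5, the Ku80 subunit of end joining, at -1.04. Of 19 genes of follicular and recirculating B cells 10 rose and 1 fell. Ccr7, the receptor for lymph node chemokines, read 10.92, 11.10 and 10.81 at day 3, against 9.98, 10.05 and 9.45 at day 1 (1.11, SE 0.174). Of 17 genes of MHC class II presentation 4 rose at low DOX, near the share of all genes (20.9%), the protease Lgmn most (1.18). At zero DOX 15 rose and 1 fell. By the test of the difference itself, 5 of the 17 were lower at low DOX and none higher. This count was 1 without both day 1 arrays that went against their labels, 3 with centring, 9 with array weights and 12 with the replicate block.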
